A study of Mus musculus with 10 samples.

Results

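With earlier results of these data known, 8 genes were chosen by name from the 31053 genes of the count matrices. They are the cyclin-dependent kinase inhibitors Cdkn1a, Cdkn1b, Cdkn1c, Cdkn2a, Cdkn2b, Cdkn2c, Cdkn2d and Cdkn3. Their UMIs, which are counts of distinct RNA molecules, were read in 65779 cells of the cortex of 10 E16.5 mouse embryos, with 1 single-cell RNA-seq library of 3′ ends per embryo. Each embryo was WT (3 embryos), Gatad2b stop/+ (Het, 4 embryos) or Gatad2b stop/stop (KO, 3 embryos). Gatad2b encodes a subunit of the NuRD chromatin remodeling and histone deacetylase complex, and the comparisons ask how its dosage relates to the genes that brake the cell cycle. The stop allele carries a trapping cassette in an intron in every cell of the animal, on the C57BL/6N-A tm1Brd background that all groups shared, so 3′ UMIs of Gatad2b need not be lost in KO.

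Cyclin-dependent kinases move a cell from growth into DNA synthesis and mitosis, and the inhibitors bind or dephosphorylate them. The Cip/Kip family (Cdkn1a, Cdkn1b and Cdkn1c, encoding p21, p27 and p57) binds complexes of cyclins with their kinases, while the INK4 family (Cdkn2a, Cdkn2b, Cdkn2c and Cdkn2d) binds the kinases Cdk4 and Cdk6, which inactivate the retinoblastoma protein. Cdkn3 encodes a phosphatase that removes an activating phosphate from cyclin-dependent kinases. In the developing cortex, p27 and p57 accompany the exit of progenitors from the cell cycle and the migration of newborn neurons, and p21 is a target of p53. Cdkn1c is imprinted and expressed from the maternal allele. The transcripts of Cdkn2a for p16 and Arf share their 3′ exons, so they could not be told apart by 3′ UMIs.

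On GRCm38, Cdkn1a lay at chr17:29090976-29100727 and Cdkn1b at chr6:134920401-134925513, both on the plus strand. Cdkn1c lay at chr7:143458339-143461050 on the minus strand, where it overlaps the antisense gene Gm44732, which had 96 UMIs against 168504 of Cdkn1c. Cdkn2a at chr4:89274471-89294653, Cdkn2b at chr4:89306299-89311039 and Cdkn2c at chr4:109660876-109667189 lay on the minus strand of a single chromosome, and Cdkn2d lay at chr9:21288410-21291407, also on the minus strand. Cdkn3 lay at chr14:46760541-46771669 on the plus strand. The UMIs of all 10 embryos together ranged from 238 for Cdkn2a and 424 for Cdkn2b to 195615 for Cdkn1b. Cdkn1a had 12321, Cdkn2c 7884, Cdkn2d 60801 and Cdkn3 5319.

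RefSeq promoters of GRCm38.p6, from 250 bases before to 50 bases after a start, were available for 7 of the 8 genes, in 10 entries, with no entry for Cdkn1c. Those of Cdkn3, Cdkn2d and Cdkn2c (the first of its 2 starts) are shown, since these genes had their highest levels in cycling progenitors. Capitals mark 3 motifs searched on both strands, TTTGAA (the core of the cell cycle homology region), CCAAT (the CCAAT box) and GGGCGG (the GC box), and a motif on the reverse strand appears as its reverse complement.
Cdkn3, chr14:46760291-46760590, plus strand: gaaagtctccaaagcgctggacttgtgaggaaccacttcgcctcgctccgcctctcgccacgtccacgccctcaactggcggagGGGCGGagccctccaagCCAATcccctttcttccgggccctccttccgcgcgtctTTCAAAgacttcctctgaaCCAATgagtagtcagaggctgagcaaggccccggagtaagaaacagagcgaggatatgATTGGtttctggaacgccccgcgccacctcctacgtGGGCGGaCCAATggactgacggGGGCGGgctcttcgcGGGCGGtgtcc
Cdkn2d, chr9:21291160-21291459, minus strand: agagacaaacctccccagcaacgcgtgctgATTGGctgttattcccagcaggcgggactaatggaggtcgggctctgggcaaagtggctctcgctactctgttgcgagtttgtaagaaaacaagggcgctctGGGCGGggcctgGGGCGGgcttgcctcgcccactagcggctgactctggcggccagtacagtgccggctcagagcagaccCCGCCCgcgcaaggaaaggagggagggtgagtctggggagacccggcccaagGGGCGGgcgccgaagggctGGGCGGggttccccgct
Cdkn2c, chr4:109666707-109667006, minus strand: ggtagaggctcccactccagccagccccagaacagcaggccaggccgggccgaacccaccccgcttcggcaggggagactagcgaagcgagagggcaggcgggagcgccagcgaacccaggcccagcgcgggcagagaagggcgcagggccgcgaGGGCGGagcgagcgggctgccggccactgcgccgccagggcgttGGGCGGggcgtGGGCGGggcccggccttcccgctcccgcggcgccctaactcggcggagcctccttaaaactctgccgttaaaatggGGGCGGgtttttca
The Cdkn3 window held 1 TTTGAA, 4 CCAAT and 4 GGGCGG. The Cdkn2d window held 0, 1 and 5 of them, and the Cdkn2c window 0, 0 and 4. Of 32851 promoters of the same length, 17.9% held TTTGAA, 37.4% CCAAT and 35.7% GGGCGG, and of the 10 entries of the inhibitors 2, 5 and 8 held them. The G and C content was 62.3% for Cdkn3, 66.3% for Cdkn2d and 73.3% for Cdkn2c, against a median of 52.7% over all promoters. The window of the second Cdkn2c start, not shown, had 44% and held 0, 1 and 0 of the motifs. Which start these cells use was not tested.

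Gatad2b itself followed the labels. Its levels, in CPM (UMIs of the gene scaled to a fixed total per library) after TMM scaling of the libraries, were 139, 131 and 133 in WT, 94.2, 89.8, 90.0 and 95.7 in Het, and 50.9, 52.8 and 57.3 in KO. Each embryo kept 82872641 to 123737385 UMIs, with a median of 10795 to 17077.5 UMIs per cell. The 45 pairs of embryos shared 4 to 19 cell barcodes. Library names start with 1 of 2 prefixes, which the labels do not explain. All WT libraries have the same one as Het replicate 4, whereas the KO libraries have that of Het replicates 1 to 3. KO and WT therefore cannot be told apart from the prefix, except through Het replicate 4. Each embryo is 1 replicate, and which embryos shared a litter was not given in the sources used here.

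In WT cortex the inhibitors fell into different patterns over 13 cell classes, which were formed by clustering without these 8 genes and named from marker genes with the ending -like. Unnamed clusters, 16.4% of all cells, are not among these classes. They held from 1.67% (Cdkn2c) to 18.3% (Cdkn2d) of the WT UMIs of an inhibitor, with 17.1% for Cdkn1c. The levels by class below are means of the 3 WT embryos in CPM of the cells of a class, and they describe the classes without a test. TMM scaling was done class by class, except for endothelial-like cells, which were too few for a test and have plain CPM. Classes are therefore not on a single scale, and the part of this in their order was not tested. The levels are not compared between genes, since 3′ UMIs were not checked for equal capture of different transcripts.

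Cdkn1a was highest in vascular, layer I-like and microglia-like cells. Its levels were 179 ± 42 (SD, n = 3) CPM in endothelial-like, 152 ± 37 in pericyte-like, 106 ± 36 in layer I-like and 92.6 ± 14 in microglia-like cells, and these neighbours in the order overlapped. The next class, interneuron-like cells, was at 17.2 ± 11 and did not overlap with microglia-like cells. Layer V-VI-like cells were at 3.64 ± 0.48, layer II-IV-like cells at 2.82 ± 0.64 and migrating neuron-like cells at 1.93 ± 0.15, and these 3 did not overlap. Within interneuron-like cells, a cluster led by Sst (cluster 20) held 1438 of the 1794 UMIs of Cdkn1a summed over all 10 embryos of the 3 genotypes.

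Cdkn1b was found in every class and was highest where neurons are born and move. Its levels were 362 ± 19 CPM in migrating neuron-like, 309 ± 29 in subventricular zone-like and 301 ± 7.0 in ganglionic eminence-like cells, of which each overlapped with the next. Radial glia-like cells followed at 215 ± 7.8 and layer V-VI-like cells were at 115 ± 6.8. A UMI of Cdkn1b was found in 96.0% of WT migrating neuron-like cells, and in 10.2% of erythroid-like cells. The latter are given as a rough measure of free RNA, but whether their UMIs are free RNA was not tested. The median depth in WT was 11648.5 UMIs in migrating neuron-like and 8382.5 in erythroid-like cells.

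Cdkn1c was higher in neurons of the cortical layers than in subventricular zone-like and ganglionic eminence-like cells. It reached 223 ± 13 CPM in layer I-like, 215 ± 5.8 in layer II-IV-like and 173 ± 18 in layer V-VI-like cells, of which the first and second overlapped. Interneuron-like (128 ± 5.3) and migrating neuron-like cells (121 ± 5.9) overlapped, and subventricular zone-like (81.6 ± 13), striatal inhibitory-like (55.3 ± 3.8) and ganglionic eminence-like cells (51.8 ± 2.9) were below them. Radial glia-like cells, at 90.7 ± 89, ranged from 26.0 to 192 in the WT embryos and reached the layer V-VI-like values. Pericyte-like (272 ± 65) and endothelial-like cells (244 ± 140.0) were higher but overlapped with layer I-like cells. Of all Cdkn1c UMIs in WT, 39.4% came from layer II-IV-like cells.

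Among the INK4 genes, Cdkn2a did not exceed 0.89 ± 0.55 CPM in any class. Cdkn2b was at 24.3 ± 19 in endothelial-like and 15.1 ± 0.22 in pericyte-like cells, and at no more than 1.99 ± 3.4 in the other classes. Cdkn2c was at 73.0 ± 8.0 CPM in ganglionic eminence-like and 49.5 ± 10.3 in radial glia-like cells, which did not overlap, at 16.9 ± 3.3 in subventricular zone-like cells, and at 0.28 ± 0.15 in layer II-IV-like cells. Cdkn2d was present in all classes, with 132 ± 7.4 in ganglionic eminence-like, 88.5 ± 4.8 in layer I-like, 70.6 ± 12 in radial glia-like and 38.5 ± 1.2 in migrating neuron-like cells.

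Cdkn3 resembled Cdkn2c. It was at 49.3 ± 7.0 CPM in ganglionic eminence-like, 37.5 ± 26 in microglia-like, 32.4 ± 3.8 in radial glia-like and 8.38 ± 0.63 in subventricular zone-like cells, and at 0.17 ± 0.089 in layer II-IV-like cells. Ganglionic eminence-like and radial glia-like cells supplied 39.4% and 33.9% of the WT UMIs of Cdkn3, and 39.3% and 35.0% of those of Cdkn2c. Over the 13 classes the Pearson correlation of their log2(CPM + 1) levels was 0.955. The 10 leading genes of both ganglionic eminence-like clusters were cell cycle genes such as Top2a and Cenpf, with no ganglionic eminence marker among them, though 6 of these markers were detected.

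**Figure D1:**
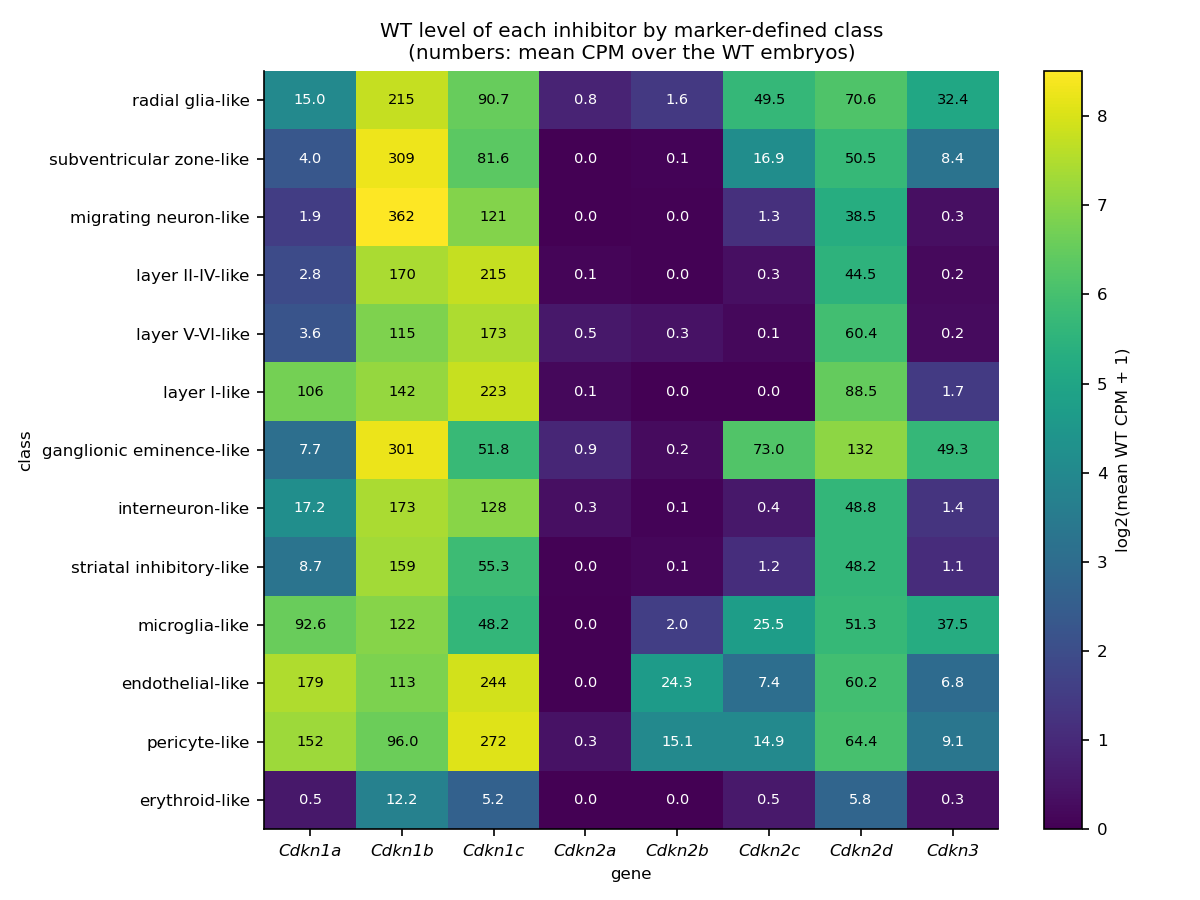
Mean CPM of the 8 inhibitors (columns) in 13 marker-defined classes (rows) of 3 WT embryos, printed in each cell and shaded by log2(CPM + 1). The CPM were TMM-scaled within each class except for endothelial-like cells. Cdkn2c and Cdkn3 were highest in ganglionic eminence-like cells (73.0 and 49.3), Cdkn1b in migrating neuron-like cells (362) and Cdkn1c in pericyte-like cells (272).

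Genes of other kinds shared these patterns. Over the same 13 classes, and among 12227 genes, the levels most correlated with Cdkn2c were those of the kinetochore gene Knl1 and of Top2a, the topoisomerase of dividing cells (both r = 0.996), and of Hmmr (0.995), and those most correlated with Cdkn3 were of the mitotic genes Dlgap5 (0.985), Shcbp1 (0.983) and Plk1 (0.981). Cdkn2d was closest to Sae1 (0.960), Ppp2r5d and Rfc1 (both 0.951), and Cdkn1b to Akt2 (0.972), Mapk6 (0.968) and Epop (0.967). Cdkn1c was closest to Sgsm3 (0.965), Lipt2 (0.963) and Dab2ip (0.958). Cdkn1a was closest to Pdgfb (0.939), a growth factor of endothelial cells, Rrbp1 (0.938) and Rbms1 (0.932), and Cdkn2b to Fzd6 (0.989), Cavin1 (0.988) and Cd93 (0.986). The points share libraries and depth, and the correlations are descriptions. They include erythroid-like cells, the lowest class for Cdkn1b (12.2 CPM), Cdkn2d (5.79) and Cdkn1c (5.20). The part of that class in these correlations was not tested.

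The level of Cdkn2c, Cdkn2d and Cdkn3 within the progenitor classes went with mitotic genes. In each embryo, the cells of a class were ordered by the share of their UMIs from 54 G2/M genes, a list that holds none of the inhibitors, and split into 3 equal groups. Over the 10 embryos, Cdkn3 was at 8.37 CPM in the group with the lowest share and at 104 in the group with the highest in ganglionic eminence-like cells, at 4.30 and 84.4 in radial glia-like cells, and at 0.56 and 24.04 in subventricular zone-like cells. Cdkn2c went from 30.1 to 129, from 10.3 to 110 and from 9.57 to 33.5 in the same classes.

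Cdkn2d went from 38.1 to 235 CPM in ganglionic eminence-like, from 25.4 to 133 in radial glia-like and from 44.4 to 58.5 in subventricular zone-like cells. All 10 embryos had the higher value in the group with the highest share for each of these 3 genes in each of the 3 classes. Cdkn1b went from 181 to 408 in ganglionic eminence-like cells, with the same direction in 10 of 10 embryos, while Cdkn1a went from 16.6 to 5.19, higher in the highest group in 0 of 10. The group with the highest share was also the deeper one: its median was 18358 UMIs per cell against 15676 in ganglionic eminence-like, 19547 against 13567 in radial glia-like and 15972 against 15581 in subventricular zone-like cells. The part of depth in these levels was not tested.

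**Figure D2:**
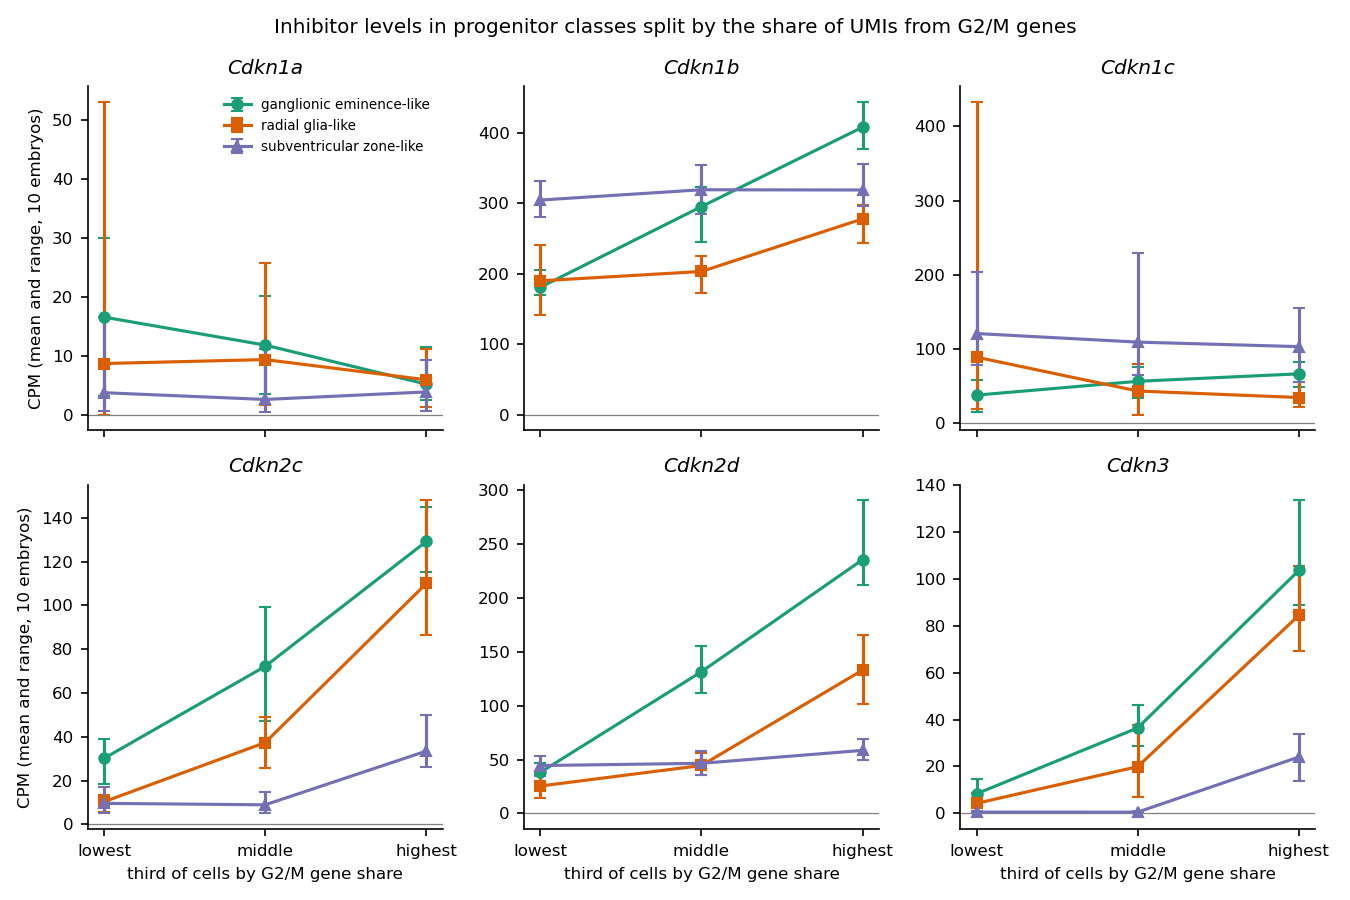
Mean CPM of 6 inhibitors in 3 equal groups of cells ordered by their G2/M share, in 3 progenitor classes, with bars from the lowest to the highest of 10 embryos. Cdkn3, Cdkn2c and Cdkn2d were higher in the group with the highest share in each class, for example 104 against 8.37 for Cdkn3 in ganglionic eminence-like cells.

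Over all cells of an embryo, 5 of the 8 inhibitors rose in KO against WT and none fell. A call required both an adjusted p below 0.05 and a log2 fold change beyond 0.25 in size, with edgeR's quasi-likelihood test and Benjamini-Hochberg adjustment over 17647 genes, of which 12% were called higher in KO. In such sums, more cells of a type and more RNA per cell cannot be told apart. Cdkn3 had the largest change, then Cdkn2c and Cdkn1a, and Cdkn2d and Cdkn1c changed less.

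Cdkn3 was at 3.84, 4.28 and 4.13 CPM in WT, at 5.60, 4.76, 4.87 and 5.12 in Het, and at 6.75, 6.42 and 6.55 in KO. No KO embryo overlapped with Het or WT, and no Het embryo with WT. The log2 fold change in KO was 0.69 ± 0.086 (SE), with an adjusted p of 1.99e-04.

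Cdkn2c was at 5.07, 7.46 and 5.82 CPM in WT, at 9.08, 7.75, 7.54 and 7.10 in Het, and at 9.84, 9.27 and 8.67 in KO. All KO embryos were above WT, while Het overlapped with both. The log2 fold change in KO was 0.60 ± 0.13 (adjusted p = 0.0053).

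Cdkn1a, at 9.14, 11.5 and 11.7 CPM in WT, was at 8.32, 11.9, 12.2 and 11.1 in Het and at 14.5, 14.6 and 16.0 in KO. Het and WT overlapped, and KO lay above both. Its log2 fold change in KO was 0.48 ± 0.13 (adjusted p = 0.0149). Without WT replicate 1 the adjusted p was 0.059, without KO replicate 3 it was 0.061, with marked doublets removed it was 0.088, and without erythroid-like, choroid plexus-like and unnamed clusters it was 0.052 (0.38).

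Cdkn2d was at 52.5, 56.8 and 52.1 CPM in WT, at 56.4, 62.7, 58.9 and 57.9 in Het, and at 63.3, 68.0 and 67.5 in KO, with all KO embryos above Het and WT. The log2 fold change was 0.30 ± 0.050 (adjusted p = 0.0012). Cdkn1c was at 160.3, 145 and 151 CPM in WT, at 161, 168, 158 and 159.9 in Het, and at 182, 187 and 179.5 in KO, and here too KO lay above the others. Its log2 fold change of 0.27 ± 0.043 (adjusted p = 9.16e-04) was close to the fold limit and under it without WT replicate 2 (0.23) or KO replicate 2 (0.25), with at most 5% mitochondrial UMIs per cell (0.24) or without erythroid-like, choroid plexus-like and unnamed clusters (0.24).

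Cdkn1b did not pass the test, with 198, 171 and 197 CPM in WT and 193, 189.7 and 201 in KO (log2 fold change 0.04 ± 0.063). Cdkn2a (0.03 ± 0.26) and Cdkn2b (0.07 ± 0.26) were too sparse for a statement, with 0.19 to 0.36 CPM and 0.23 to 0.53 CPM in the 10 embryos.

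**Figure D3:**
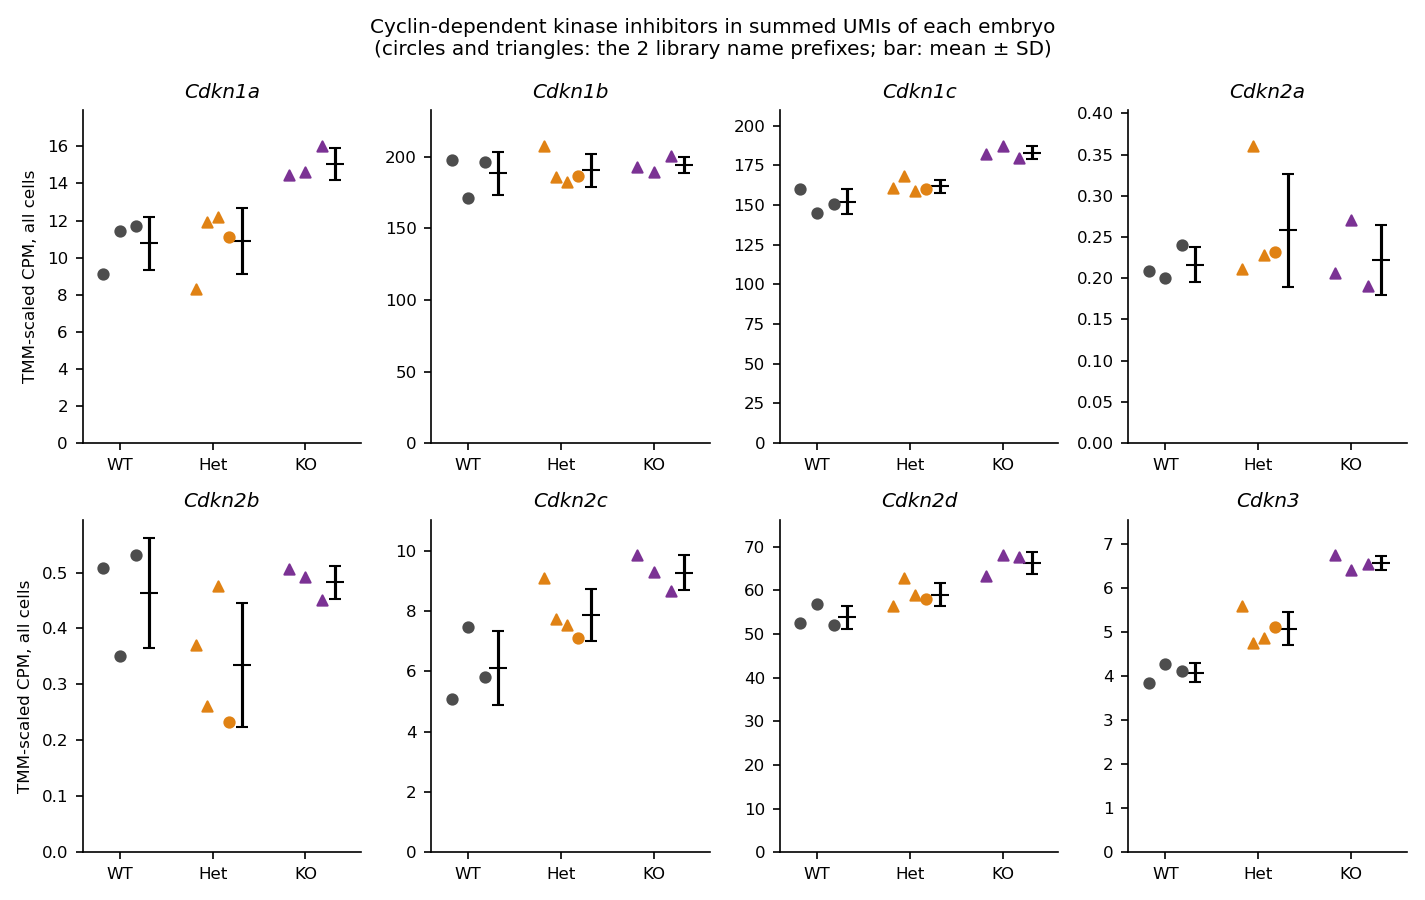
TMM-scaled CPM of each inhibitor over all cells of the 10 embryos by genotype, with the mean and SD of each group and the marker shape giving the library prefix. For Cdkn3, the KO embryos (6.42 to 6.75) lay above the Het (4.76 to 5.60) and WT embryos (3.84 to 4.28), which did not overlap either.

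Het differed less. Cdkn3 was the only inhibitor called in Het against WT, at a log2 fold change of 0.32 ± 0.081 and an adjusted p of 0.0494 by the same test, where 1.58% of the genes were called higher. The call was lost without any one embryo other than Het replicate 4, at adjusted p from 0.063 to 0.15. Cdkn2c, at 0.36 ± 0.125, had an adjusted p of 0.098 and was called by DESeq2, at 0.038. Against Het, KO was higher in Cdkn3 (0.37 ± 0.079, adjusted p = 0.0163) and Cdkn1a (0.47 ± 0.12, adjusted p = 0.0395), 2 of 8 where 2.53% of the genes were called higher. Leaving out 1 embryo at a time kept the call of Cdkn3 in 7 of 10 fits, lost without Het replicate 3 (0.051), KO replicate 1 (0.058) or KO replicate 3 (0.056), and that of Cdkn1a in 3 of 10, lost without any KO embryo, WT replicate 2 or 3, or Het replicate 2 or 4 (0.054 to 0.15). At most 5% mitochondrial UMIs left neither called, with adjusted p of 0.052 for Cdkn3 and 0.070 for Cdkn1a. The difference was past the adjusted threshold but under the fold limit for Cdkn1c (0.18, adjusted p = 0.0211), and Cdkn2d missed it (0.17, adjusted p = 0.052).

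Within the single prefix that Het replicates 1 to 3 share with KO, the same 2 genes, Cdkn3 (0.37 ± 0.086, adjusted p = 0.0283) and Cdkn1a (0.48 ± 0.12, adjusted p = 0.0457), were called higher in KO, where 2.92% of the genes were. Leaving out any one of those embryos other than Het replicate 1 left neither called. With the prefix as a covariate in the fit of all embryos, Cdkn3 alone among the 5 stayed called in KO against WT, at 0.70 and an adjusted p of 0.0161. The others were at 0.52 (Cdkn1a), 0.40 (Cdkn2c), 0.27 (Cdkn2d) and 0.25 (Cdkn1c), with adjusted p of 0.198, 0.297, 0.082 and 0.061.

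Of the 3 progenitor classes that supplied most Cdkn2c and Cdkn3, ganglionic eminence-like and subventricular zone-like cells had larger shares of the cells in every KO than in every WT embryo. Ganglionic eminence-like cells were 2.65% ± 0.33 (SD, n = 3) of the cells in WT, 3.66% ± 0.43 (n = 4) in Het and 4.77% ± 0.72 (n = 3) in KO. Subventricular zone-like cells were 4.40% ± 0.28, 5.81% ± 0.98 and 6.98% ± 0.61, and radial glia-like cells were 3.98% ± 0.61, 3.50% ± 0.59 and 4.48% ± 0.93. The exact two-sided permutation p was 0.5 for radial glia-like cells, which overlapped between KO and WT. It was 0.1 for ganglionic eminence-like and subventricular zone-like cells, which is the smallest that 3 embryos against 3 allow (0.233 after Benjamini-Hochberg adjustment over 14 classes). KO and WT also did not overlap, at the same p, in migrating neuron-like cells, which had larger shares in KO. The same held for layer II-IV-like, layer I-like and unnamed cells, which had smaller ones. The shares of an embryo add up to a whole, so they are not independent. The classes were rebuilt here, so ganglionic eminence-like cells, led by cell cycle genes, need not be the cells given such a name elsewhere, and their share depends on that.

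When each embryo's class levels were averaged with the class shares of UMIs held at the WT mean, the KO excess of Cdkn2c and Cdkn3 was smaller. These were shares of an embryo's UMIs, not the shares of its cells given above, so they also hold the RNA content of a class. On the log2(CPM + 1) scale, the difference from WT went from 0.50 with the observed shares to 0.13 with fixed shares for Cdkn2c (0.049 to 0.22 without single embryos), and from 0.54 to 0.25 for Cdkn3. It went from 0.41 to 0.54 for Cdkn1a, from 0.23 to 0.30 for Cdkn1c and from 0.25 to 0.24 for Cdkn2d. The exact two-sided permutation p with fixed shares was 0.1, the smallest possible, for Cdkn1a, Cdkn1c, Cdkn2d and Cdkn3, and 0.3 for Cdkn2c. In Het, Cdkn1c was 0.10 above WT with fixed shares, with an exact two-sided permutation p of 0.0286, the smallest that 4 embryos against 3 allow and 1 of 16 such tests (0.267 after Benjamini-Hochberg adjustment over them).

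**Figure D4:**
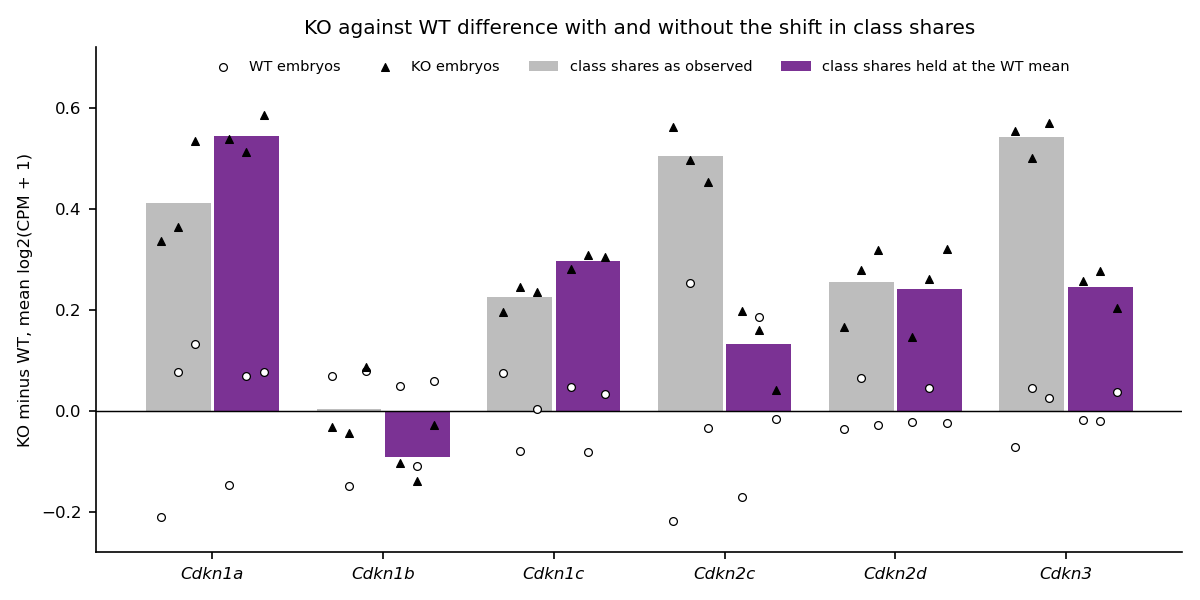
Mean KO minus WT difference of log2(CPM + 1) for 6 inhibitors with the observed class shares of UMIs and with these shares held at the WT mean, with points for the WT and KO embryos and without the sparse Cdkn2a and Cdkn2b. For Cdkn2c the difference was 0.50 with observed and 0.13 with fixed shares, and for Cdkn1a it was 0.41 and 0.54.

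Within the classes, 12 of 59 tests of an inhibitor in a class called a rise in KO against WT and none a fall, in 12 classes with at least 20 cells in every embryo. Over all genes, 15.9% of such tests were called in either direction. The share called higher ran from 0.17% of genes in pericyte-like to 13.9% in layer II-IV-like cells. The 12 of 59 were all rises, so they are not of the same measure as the first share. The tests share embryos, and no excess of the inhibitors is drawn from this count. The calls were 5 for Cdkn1a, 4 for Cdkn1c, 2 for Cdkn2d and 1 for Cdkn3. DESeq2 kept all 12, while 11 were kept with at most 5% mitochondrial UMIs, with marked doublets removed and at clustering resolution 0.8, and 10 without integration of the embryos. The call of Cdkn1a in ganglionic eminence-like cells was lost in each of these 4 settings, and that of Cdkn1c in subventricular zone-like cells without integration. Adding the prefix to the fit kept 8 of the 12 calls, and the 4 lost were those of Cdkn1a in ganglionic eminence-like, migrating neuron-like and striatal inhibitory-like cells and of Cdkn3 in radial glia-like cells.

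Cdkn1a had the largest changes, in neuron classes where its level is low. In layer II-IV-like cells it was at 2.08, 3.26 and 3.11 CPM in WT, at 4.81, 5.005, 5.35 and 4.18 in Het, and at 9.94, 8.21 and 8.66 in KO. The 3 genotypes did not overlap, and the order followed the number of mutant alleles. The log2 fold change in KO was 1.68 ± 0.16 (adjusted p = 1.39e-06), and 1.41 with the prefix as a covariate.

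In layer II-IV-like cells the rise of Cdkn1a in Het (0.78 ± 0.155, adjusted p = 0.0093) was the only call of an inhibitor in a class in Het against WT, 1 of 59 where 1.86% of all tests were called. It was not called without cluster 13 of this class (0.58, adjusted p = 0.103), a choice made after the values were seen, nor with the prefix as a covariate (0.58, adjusted p = 0.301). A UMI of Cdkn1a was found in 4.25% of WT layer II-IV-like cells, against 0.485% of erythroid-like cells, at median depths of 18224 and 8382.5 UMIs.

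In striatal inhibitory-like cells Cdkn1a was at 7.48, 8.02 and 10.6 CPM in WT and at 27.8, 26.0 and 18.04 in KO (1.45 ± 0.22, adjusted p = 3.28e-04). Layer V-VI-like cells had 3.48, 3.27 and 4.19 in WT and 6.02, 6.55 and 5.92 in KO (0.78 ± 0.16, adjusted p = 0.0013). Cluster 5 was 57.7% to 61.3% of that class in WT and 49.2% to 55.3% in KO. The part of this in the change was not tested. Migrating neuron-like cells had 2.05, 1.98 and 1.77 in WT and 4.31, 4.73 and 3.44 in KO (1.09 ± 0.29, adjusted p = 0.0081). KO and WT did not overlap in any of these classes.

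In ganglionic eminence-like cells the change of Cdkn1a (1.04 ± 0.31, adjusted p = 0.045) stayed called without Het replicate 1 or 4, and without any other single embryo the adjusted p was 0.050 to 0.19. It was 0.061 with at most 5% mitochondrial UMIs, 0.084 with marked doublets removed, 0.074 at resolution 0.8 and 0.133 without integration (log2 fold change 0.84 to 1.06). Cdkn1a did not pass the test in interneuron-like cells (0.40 ± 0.52), where the share of cluster 20 ranged from 0.97% of the class in Het replicate 1 to 11.6%. Without that cluster, a choice made after the values were seen, Cdkn1a was called there at 1.20 (adjusted p = 0.0058). It did not pass in layer I-like (0.31 ± 0.21), microglia-like (0.32 ± 0.40) or pericyte-like cells (0.20 ± 0.29), where its level was high.

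Radial glia-like and subventricular zone-like cells had estimates in the other direction for Cdkn1a, −1.46 ± 0.59 (adjusted p = 0.108) and −1.31 ± 0.57 (adjusted p = 0.102). The radial glia-like values in WT were 25.8, 16.0 and 3.19 CPM, and 5.06, 10.4 and 2.41 in KO, and they overlapped. The summed level of 6 choroid plexus markers in this class was 42805 CPM in WT replicate 1 and 2280 in WT replicate 2, against 2.39 to 82.9 in the other embryos, and Cdkn1c was at 192, 54.5 and 26.0 CPM in the WT embryos. Cluster 17, led by Ttr, with a median of 2152 UMIs per cell, was 41.4% to 57.3% of the radial glia-like cells in WT and 29.2% to 35.1% in KO. Without it, a choice made after the values were seen, the estimates were −1.23 (adjusted p = 0.137) for Cdkn1a and −0.25 ± 0.37 for Cdkn1c, against −1.13 for Cdkn1c with it. In subventricular zone-like cells without cluster 21, chosen in the same way, Cdkn1a was at −0.092 (adjusted p = 0.919).

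Cdkn1c rose in KO in 4 of 11 classes tested: interneuron-like, migrating neuron-like, subventricular zone-like and layer II-IV-like cells. In these classes 4.05%, 12.6%, 10.5% and 13.9% of all genes were called higher. In interneuron-like cells Cdkn1c was at 134, 123 and 127 CPM in WT, at 165, 154, 169 and 159 in Het, and at 244, 229 and 212 in KO. The genotypes did not overlap, and the log2 fold change in KO was 0.84 ± 0.065 (adjusted p = 4.98e-05). Cluster 2 of this class had 152 to 165 CPM in WT and 317 to 353 in KO before TMM scaling, while cluster 10 had 29.9 to 49.2 and 45.6 to 55.7, which overlapped.

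Migrating neuron-like cells had 127, 122 and 115 CPM of Cdkn1c in WT, 129, 138, 126 and 154 in Het, and 181, 189 and 187 in KO (0.62 ± 0.064, adjusted p = 1.41e-06). Subventricular zone-like cells had 96.5, 71.5 and 76.9 in WT, 105, 76.4, 82.4 and 110.0 in Het, and 139.7, 184 and 178 in KO (1.03 ± 0.14, adjusted p = 1.12e-04). In both classes KO lay above the other genotypes and Het overlapped with WT. Cluster 21 was 18.7% to 34.2% of the subventricular zone-like cells in WT and 7.49% to 9.87% in KO, and without it the change was 0.91 (adjusted p = 3.21e-04). Without integration of the embryos, which gives other clusters, it was 0.49 (adjusted p = 0.199).

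In layer II-IV-like cells, the class with the largest share of the Cdkn1c UMIs in WT, the log2 fold change of Cdkn1c was smaller: 213, 211 and 222 CPM in WT, 240.3, 248, 240.4 and 240.3 in Het, and 272, 274 and 265 in KO (0.33 ± 0.041, adjusted p = 2.36e-05), again with no overlap between genotypes. Layer V-VI-like cells had 168, 159 and 193 in WT and 177, 174 and 183 in KO (0.04 ± 0.065). Cdkn1c was not called in layer I-like (−0.06 ± 0.092), striatal inhibitory-like (0.32 ± 0.12, adjusted p = 0.061), ganglionic eminence-like (0.22 ± 0.10), pericyte-like (−0.40 ± 0.27), radial glia-like (−1.13 ± 0.54) or erythroid-like cells (0.95 ± 0.44).

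Cdkn1b was called in 0 of 12 classes by edgeR and by DESeq2. Unadjusted p was under 0.05 in 2 of them, with lower values in KO: layer V-VI-like cells at −0.20 ± 0.056 (adjusted p = 0.0114) and migrating neuron-like cells at −0.15 ± 0.052 (adjusted p = 0.0308), both short of the fold limit. In migrating neuron-like cells it was at 376, 341 and 370.1 CPM in WT and at 325, 314 and 339.7 in KO, which did not overlap.

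Of the INK4 genes, Cdkn2d rose in KO in 2 of 12 classes, near the 15.9% of tests over all genes and classes that were called in either direction. These were layer II-IV-like and migrating neuron-like cells, where 13.9% and 12.6% of all genes were called higher. In layer II-IV-like cells Cdkn2d was at 43.1, 47.3 and 43.1 CPM in WT, at 49.2, 52.8, 47.9 and 49.8 in Het, and at 62.3, 68.1 and 72.6 in KO, with no overlap between genotypes (0.60 ± 0.061, adjusted p = 3.19e-06). In migrating neuron-like cells it was at 39.7, 37.3 and 38.5 in WT, at 43.9, 46.1, 39.1 and 43.1 in Het, and at 51.1, 51.1 and 54.6 in KO (0.44 ± 0.066, adjusted p = 6.84e-05). There KO lay above Het and WT, and Het overlapped with WT. In the progenitor classes, where its level went with mitotic genes, the estimates were 0.12 ± 0.079 (ganglionic eminence-like), 0.04 ± 0.14 (radial glia-like) and 0.09 ± 0.085 (subventricular zone-like), the last 2 turning to −0.091 and −0.037 without clusters 17 and 21. In interneuron-like cells the change of Cdkn2d was 0.25 ± 0.12 and not called, and without cluster 20 it was called at 0.42 (adjusted p = 9.42e-04).

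Cdkn2c was called in 0 of 6 classes by edgeR and by DESeq2, with 0 at an unadjusted p under 0.05. Radial glia-like cells had 41.4, 61.1 and 46.1 CPM in WT and 72.3, 59.2 and 54.3 in KO (0.32 ± 0.18), and ganglionic eminence-like cells 63.9, 79.2 and 75.7 in WT and 84.0, 87.0 and 77.4 in KO (0.18 ± 0.11). KO and WT overlapped in both. Cdkn2b was tested in pericyte-like cells only (−0.29 ± 0.37), and Cdkn2a had too few UMIs for a test in any class.

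Cdkn3 rose in KO in radial glia-like cells, 1 of 6 classes tested. It was at 28.1, 33.9 and 35.3 CPM in WT, at 44.9, 34.5, 35.0 and 36.6 in Het, and at 49.3, 54.1 and 50.04 in KO, where KO lay above both and Het overlapped with WT. The log2 fold change was 0.65 ± 0.12 (adjusted p = 0.0042), and 0.52 (adjusted p = 0.0043) without cluster 17. G2/M genes moved with it: their share of the UMIs of the class was 0.99% to 1.26% in WT and 1.30% to 1.40% in KO, and 20 of 54 rose and 0 fell there (median log2 fold change 0.33), while 16.1% of all genes were called. Their part in the rise of Cdkn3 was not tested.

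In ganglionic eminence-like cells Cdkn3 was at 56.5, 42.5 and 48.8 CPM in WT and at 65.7, 54.5 and 50.8 in KO (0.22 ± 0.12, adjusted p = 0.273), which overlapped. The estimate in subventricular zone-like cells was −0.24 ± 0.25, and −0.57 (adjusted p = 0.155) without cluster 21. Of 54 G2/M genes, 0 rose and 2 fell in ganglionic eminence-like cells. There 7.58% of all genes were called, and 451 of 11280 were called lower. In subventricular zone-like cells 0 rose and 10 fell, where 23.8% of all genes were called and 1619 of 12244 were called lower. Within ganglionic eminence-like cells, the cluster led by mitotic genes (cluster 24) had 105 to 132 CPM of Cdkn3 in WT and 143 to 160 in KO before TMM scaling, and the cluster led by histone genes (cluster 12) 24.1 to 29.2 and 24.4 to 37.5.

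**Figure D5:**
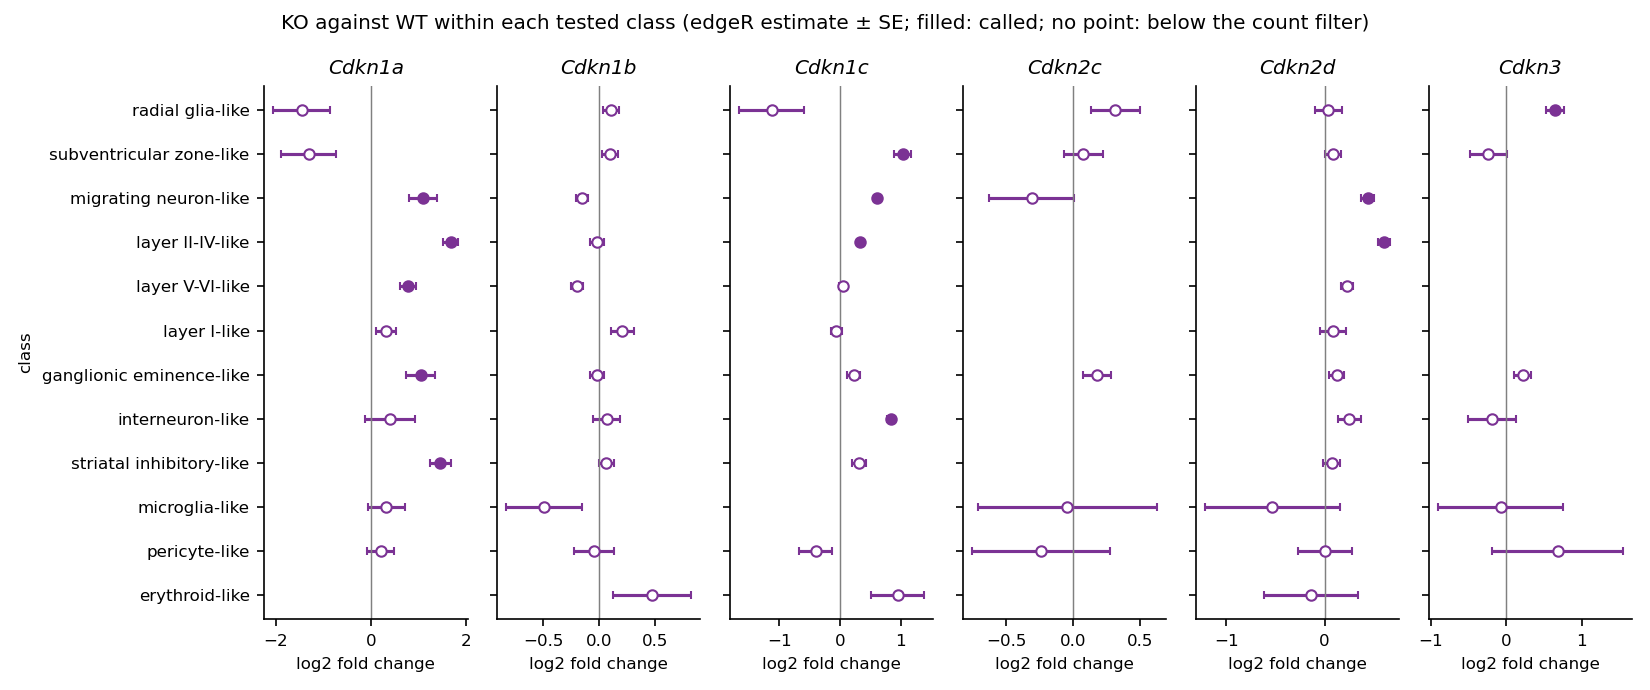
Log2 fold change in KO against WT with its SE for 6 inhibitors in the classes tested, with filled points for calls by edgeR's quasi-likelihood test. Cdkn1a in layer II-IV-like cells (1.68) and Cdkn1c in subventricular zone-like cells (1.03) were among 12 calls, all of them rises.

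Against Het, KO was called higher in 7 of 59 tests within classes, where 4.17% of all tests were called in either direction. These were Cdkn1a in layer II-IV-like (0.89) and layer V-VI-like cells (0.59), Cdkn1c in interneuron-like (0.50), migrating neuron-like (0.44) and subventricular zone-like cells (0.83), and Cdkn2d in layer II-IV-like (0.44) and migrating neuron-like cells (0.28). The last was under the fold limit without Het replicate 3 or KO replicate 3 (0.24 and 0.25) and with at most 5% mitochondrial UMIs (0.24), where Cdkn1a in layer V-VI-like cells was not called either (0.44, adjusted p = 0.244). Cdkn1c in subventricular zone-like cells was not called without integration (0.80, adjusted p = 0.075).

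The change in KO differed between classes. In a test of the class by genotype interaction against layer II-IV-like cells, 18 of 66 tests of an inhibitor were called. Of these, 3 were higher and 15 lower than in layer II-IV-like cells, while 7.35% of all such tests were called. All tests share this reference class, where the rises of Cdkn1a (1.68) and Cdkn2d (0.60) were the largest. The tests are therefore not independent, and lower differences of these genes follow in part from that choice. Without single embryos, 14 to 19 were called. Among the 18, Cdkn1c in microglia-like cells was below the count filter within its own class. The rise of Cdkn1a was lower by 2.95 on the log2 scale in subventricular zone-like cells (−2.95, adjusted p = 7.62e-04), and the differences were −3.05 in radial glia-like, −1.31 in layer I-like and −0.92 in layer V-VI-like cells. In subventricular zone-like cells without cluster 21 the difference was −1.77 (adjusted p = 0.0374). The difference in layer V-VI-like cells was not called without WT replicate 1 (−0.74, adjusted p = 0.051).

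For Cdkn1c, the change exceeded that of layer II-IV-like cells by 0.73 in subventricular zone-like, 0.52 in interneuron-like and 0.30 in migrating neuron-like cells, and it was lower in layer V-VI-like (−0.28) and layer I-like cells (−0.38). The change of Cdkn2d was lower than in layer II-IV-like cells in 6 classes, by −0.37 in layer V-VI-like to −0.54 in radial glia-like cells. The difference in radial glia-like cells was not called without WT replicate 2, KO replicate 2 or KO replicate 3 (adjusted p from 0.072 to 0.081), and that in layer I-like cells not without WT replicate 1 (0.083) or KO replicate 3 (0.129). For Cdkn1c, the difference was under the fold limit without WT replicate 3 in migrating neuron-like (0.24) and layer V-VI-like cells (−0.23), and that in layer I-like cells was not called with marked doublets removed (−0.25, adjusted p = 0.123).

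Cyclins and the kinases that the inhibitors act on were measured over all cells. Of 14 cyclins and cyclin-dependent kinases, 7 rose and 1 fell in KO against WT (median log2 fold change 0.30), while 24.5% of all genes were called and their median was −0.0055. Cdk6 (0.65 ± 0.10) and Cdk2 (0.58 ± 0.099), kinases of the entry into S phase, and Cdk1 (0.51 ± 0.096), the kinase of mitosis, rose most, and cyclin D1 (Ccnd1) fell (−0.30 ± 0.059). Within ganglionic eminence-like cells their median was −0.096.

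Of 13 Rb and E2f genes, 3 were called (23.1%, near the 24.5% of all genes), all of them rises: the S phase activators E2f2 (0.62 ± 0.15) and E2f1 (0.41 ± 0.084), and the pocket protein gene Rbl1 (0.40 ± 0.11). Of 43 S phase genes 15 rose and 0 fell over all cells (median 0.21), led by Gmnn (0.85 ± 0.095), which encodes the replication licensing inhibitor geminin, Dtl (0.67 ± 0.092) and Pcna (0.61 ± 0.12). Of 54 G2/M genes 36 rose and 1 fell over all cells (median 0.41), led by Cks2 (0.75 ± 0.075), Cdc20 (0.73 ± 0.066), an activator of the anaphase promoting complex, and Birc5 (0.71 ± 0.070), and Hjurp fell (−0.26 ± 0.069). Within classes the S phase genes moved in both directions. In subventricular zone-like cells 0 of 43 rose and 15 fell (median −0.31), where 23.8% of all genes were called. In striatal inhibitory-like cells 16 of 38 rose and 0 fell (17.1% of all genes called). Ganglionic eminence-like cells had 8 rises and 0 falls of 43 (7.58% called), and radial glia-like cells 1 and 0 (16.1% called).

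Of 19 genes that control the inhibitors, 4 rose and 2 fell in KO, and 13 did not pass. The share called, 31.6%, was near the 24.5% of all genes. Neurog2 (0.59 ± 0.12), a proneural factor, Hdac1 (0.54 ± 0.0399), a deacetylase of NuRD, and Cks1b (0.54 ± 0.041), a cofactor in the degradation of p27, were the largest rises, and Myc (−0.69 ± 0.11) and the ubiquitin ligase gene Fbxw7 (−0.36 ± 0.032) fell. Of 20 p53 targets other than Cdkn1a, 3 rose and 3 fell (median −0.012), a share of 30.0% near the 24.5% of all genes. Sesn2 (0.46 ± 0.15), Trp53inp1 (0.37 ± 0.071) and the apoptosis gene Bax (0.27 ± 0.059) rose, while the polymerase gene Polk (−0.51 ± 0.085), Plk2 (−0.38 ± 0.042) and the death receptor gene Fas (−1.76 ± 0.22) fell. Fas was sparse, with 0.54 to 0.65 CPM in WT and 0.14 to 0.21 in KO. In layer II-IV-like cells, where Cdkn1a changed most, 5 of 17 p53 targets rose and 3 fell, with 27.9% of all genes called.

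Of 17 genes in the imprinted domain around Cdkn1c, 14 were tested, and 2 rose and 1 fell over all cells (21.4%, against 24.5% of all genes). Slc22a18 rose by 1.05 ± 0.28 on the log2 scale and Osbpl5 by 0.30 ± 0.073, while Igf2, which is expressed from the paternal allele, fell (−1.48 ± 0.47). Slc22a18 (0.19 to 0.23 CPM in WT, 0.36 to 0.50 in KO) and Igf2 (0.22 to 0.41 and 0.074 to 0.13) were as sparse as Cdkn2a and Cdkn2b. In interneuron-like cells, where Cdkn1c rose, the median of the 8 genes tested was 0.094.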

How the data were processed

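Single-cell RNA-seq libraries (10X 3′ chemistry) of the cortex of 10 embryos were deposited by the authors as UMI counts per gene and cell, made with Cell Ranger (6.0.2 in the submitters' processing notes) and not normalized. Of 80071 barcodes, 65779 entered the analysis, those with 1000 or more UMIs of which no more than 10% were mitochondrial. Cells were normalized, integrated over embryos and clustered with Seurat 5.3.0 (2000 variable genes without the 8 inhibitors and Gatad2b, 30 components, resolution 0.4, 28 clusters). A marker list could name a cluster at a score of at least 0.5 with at least 3 markers found in 10% of its cells. Among lists within 0.4 of the best such score, the one with most markers among the 10 leading genes was taken. The cluster stayed unnamed if another list had more markers among those genes, if the list taken had none there and a score under 1, or if it had none there and low UMI counts (under 1/3 of those of the same embryos). So 4 clusters stayed unnamed, among them clusters 4 and 6 (best scores 0.53 and 1.34, both migrating neuron, with 0 leading markers), cluster 6 because layer V-VI had 1. So cluster 16 was named radial glia-like (score 3.74, 5 leading markers) over oligodendrocyte precursor (3.99, 1), and cluster 17 radial glia-like (0.91), since its higher choroid plexus score (4.01) rested on too few markers. Cluster 27 was named interneuron-like by the same rule, with higher scores for migrating neurons (1.11) and layer II-IV (1.03). Marked doublets (4.80% to 8.31% of the cells of an embryo) were kept in the main analysis.

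For each embryo, raw counts were added up across all cells and within each class and tested with edgeR 4.0.16 (TMM scaling, low-count filter, quasi-likelihood test, all 3 genotypes in 1 fit) with Benjamini-Hochberg adjustment over all genes tested. A call required an adjusted p below 0.05 together with a log2 fold change beyond 0.25 in size. Single values were compared by exact two-sided permutation tests over embryos. DESeq2 1.42.0 and the other settings are given with the limits. The script was tested on simulated data. Genes outside the inhibitors were named as the up to 3 largest changes in each direction of each list, and similar genes as the 3 highest correlations. The inhibitors and the lists were chosen with earlier results of these data known. Gene positions are those of GENCODE on GRCm38, and promoters are those of RefSeq on GRCm38.p6. Intervals between embryos cover the spread of these samples only.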

Additional observations from a re-analysis of the deposited data

Results flagged for a closer look

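In Het, 4 of 73 groups of 4 embryos had a single embryo whose gap to the nearest made up most of the range. By chance about 1 in 20 would. The rule is relative, so a small difference is flagged where the other 3 values lie close together. Cdkn1a in interneuron-like cells was at 2.50 CPM in Het replicate 1 against 20.7 to 21.2, and this embryo also had the lowest share of cluster 20 in that class (0.97%). Cdkn1c in layer II-IV-like cells was at 248 CPM in Het replicate 2 against 240.3 to 240.4. Cdkn2a over all cells was at 0.361 CPM in Het replicate 2 against 0.212 to 0.232, from 33 UMIs against 20 to 29. Cdkn3 in ganglionic eminence-like cells was at 57.5 CPM in Het replicate 2 against 47.8 to 48.1.

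The KO against WT change differed from that in layer II-IV-like cells in 18 tests of the interaction of class and genotype (edgeR's quasi-likelihood test, Benjamini-Hochberg adjustment). These tests share their reference class and are not independent. For Cdkn1a the log2 differences were −3.05 in radial glia-like (adjusted p = 0.0057), −2.95 in subventricular zone-like (7.62e-04), −1.49 in microglia-like (0.0325), −1.43 in pericyte-like (0.019), −1.31 in layer I-like (6.73e-05) and −0.92 in layer V-VI-like cells (0.0050). For Cdkn1c they were 0.73 in subventricular zone-like (9.15e-04), 0.52 in interneuron-like (1.39e-04), 0.30 in migrating neuron-like (0.0011), −0.28 in layer V-VI-like (3.56e-04), −0.38 in layer I-like (0.0046) and −2.11 in microglia-like cells (0.0046). For Cdkn2d they were −0.37 in layer V-VI-like (4.38e-05), −0.48 in ganglionic eminence-like (0.0015), −0.50 in subventricular zone-like (5.64e-04), −0.51 in layer I-like (0.0145), −0.53 in striatal inhibitory-like (7.03e-04) and −0.54 in radial glia-like cells (0.0159). Leaving out 1 embryo at a time gave 14 to 19 such differences. It kept the call of Cdkn1a in microglia-like cells in 1 of 10 fits (adjusted p from 0.052 to 0.33 in the others) and in pericyte-like cells in 7 of 10 (−1.85 to −1.09), that of Cdkn1c in microglia-like cells in 8 of 10 (−3.19 to −1.55), and that of Cdkn2d in radial glia-like cells in 7 of 10 and in layer I-like cells in 8 of 10. With marked doublets removed, the Cdkn1c differences in microglia-like (−1.48, adjusted p = 0.377) and layer I-like cells (−0.25, 0.123) were not called. Microglia-like cells numbered 21 in the embryo with the fewest, and pericyte-like cells 20. In microglia-like cells Cdkn1c had 47 UMIs in WT, 14 in Het and 8 in KO, and was below the count filter within that class. It entered the interaction test through layer II-IV-like cells, since the filter took both classes together, so no statement is drawn from that difference.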

How the results depend on the processing

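Of the inhibitors called over all cells in Het against WT (1), 2 were called by DESeq2 and 2 with a replicate block, and 0 with DESeq2 size factors, no filter on low counts, the prefix as a covariate, only the 2 groups compared, at least 3000 UMIs per cell, or marked doublets removed. Leaving out single embryos gave 0 to 2. Within classes in Het against WT (1), DESeq2, no filter and the replicate block gave 3 each. Leaving out single embryos gave 1 to 3, interneuron-like cells without cluster 20 gave 2, and layer II-IV-like cells without cluster 13 gave 0. The prefix as a covariate also gave 1, but not the call of the main fit. Over all cells in KO against WT (5), the prefix gave 1 (Cdkn3 kept) and leaving out erythroid, choroid plexus and unnamed clusters gave 3 (Cdkn1a and Cdkn1c lost). In KO against Het (2), the prefix, doublet removal and leaving out those clusters gave 1 each (Cdkn1a lost), at most 5% mitochondrial UMIs gave 0, and leaving out single embryos gave 0 to 2, as within the single prefix. Within classes in KO against Het (7), no filter gave 14. The cause was not tested. Settings without a numbered cluster were chosen after seeing the data.

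The replicate block gave 5 calls over all cells and 14 within classes in KO against WT, and 2 and 7 in KO against Het. Embryos with the same number correlated at −0.185 to 0.125 in their deviations from the group means, so the numbers were not taken as pairs.

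With fixed class shares, the Het difference of Cdkn1a turned to −0.021 at clustering resolution 0.8, −0.0046 without integration, −0.0063 at 3000 UMIs and −0.12 without doublets (−0.082 to 0.10 without single embryos), and that of Cdkn2b reached an exact permutation p of 0.0286 at −0.16 at resolution 0.8. Without single embryos, Cdkn1c in Het was 0.058 to 0.12, where no p under 0.05 can be had, and Cdkn2a −0.0100 to 0.055. In KO, Cdkn2a was 0.0048 at resolution 0.8 (−0.042 to 0.014 without single embryos) and Cdkn2b 0.0014 without integration (−0.077 to 0.023).

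Over all cells, log2 fold changes that did not pass the test changed sign. In Het, Cdkn1a was −0.0020 with the replicate block, −0.065 without doublets, −0.016 without erythroid, choroid plexus and unnamed clusters and −0.095 to 0.12 without single embryos, and Cdkn1b was −0.016 with the prefix and −0.059 to 0.046. In KO, Cdkn2a was −0.16 with the prefix, −0.0060 without cluster 17 and −0.13 to 0.12, Cdkn2b was −0.61, −0.12 (doublets), −0.19 (clusters left out) and −0.11 to 0.17, and Cdkn1b was −0.031 to 0.075. Within the single prefix, Cdkn1b was −0.018 to 0.081 and Cdkn2a −0.42 to 0.0037. Cdkn2a and Cdkn2b had too few UMIs for any direction.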
